A study of Mus musculus with 6 samples.

Results

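Cardiac potassium channel genes that serve repolarization were followed across 6 mouse heart libraries: Kcna5, Kcna4, Kcnd2, Kcnip2, Kcnq1, Kcnh2, Kcne1, Kcnk3 and Kcnv2. These 9 genes were found by symbol among the 16229 genes of the table, 1 row each. They were chosen by name with the log2 CPM values of these same rivaroxaban, dabigatran and untreated libraries, and the differences between the groups, in view. Their levels and differences are therefore given as a description, with standard errors and without p-values, and the calls of the fit across all genes are read only as labels. The hearts came from male C57BL/6 mice of 8 to 10 weeks. 2 libraries came from mice given rivaroxaban, an inhibitor of coagulation factor Xa, at 3 mg/kg for 7 days, 2 from mice given dabigatran, an inhibitor of thrombin (factor IIa), at 10 mg/kg for 7 days, and 2 from untreated mice. The doses of the drugs thus differ. According to the labels' protocols, each sample held infarcted heart tissue and the tissue around it, and the series is about ischemia-reperfusion injury. The labels do not state whether untreated mice had surgery, or that each sample is a different mouse. Errors and p-values then measure only the spread between these samples, which may be technical.

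Repolarization returns the heart muscle cell to its resting voltage after each beat, mainly through potassium leaving the cell. In mouse ventricle the fast transient outward current, carried by pores of the Kcnd family with the calcium-binding partner encoded by Kcnip2, and the slowly inactivating current to which Kcna5 contributes do most of this work. The delayed rectifiers built from Kcnh2 and from Kcnq1 with Kcne1 dominate in human ventricle and are minor in the adult mouse. K2P channels such as that of Kcnk3 are open at rest and carry a background current.

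Depth ran from 27176892 to 43798222 reads over the genes of the table, and all 9 channel genes passed the filter on low values, an average of 0 or more in log2 CPM, a log2 scale of read number relative to library size. Cardiomyocyte markers summed to 81270 and 83315 CPM in rivaroxaban, 84614 and 85374 CPM in dabigatran and 83655 and 85563 CPM in untreated libraries over 7 of 10 listed genes. Atrial markers, 8 of 10, summed to between 133 and 175 CPM in all libraries, against 18497 to 19819 CPM for 6 of 6 ventricular markers. The tissue was thus ventricular by its markers. Neutrophil markers, usual in fresh infarcts, summed to no more than 3.48 CPM over 4 of 6 genes. Some marker sums did not overlap between drug and untreated libraries, among them the cardiomyocyte sum with rivaroxaban. With 2 libraries per group such gaps are common. They occurred for 50.6% of all tested genes with rivaroxaban and 43.6% with dabigatran. Ventricular markers lay at 18497 to 19092 CPM with rivaroxaban and 19424 to 19585 CPM with dabigatran, against 19809 to 19819 CPM in untreated hearts. The 8 mesothelial markers lay at 49.2 to 57.6 CPM with rivaroxaban and 62.0 to 64.8 CPM with dabigatran, against 88.0 to 93.1 CPM untreated. Of these 8, 7 were called lower and 1 higher with rivaroxaban, and 3 lower and 1 higher with dabigatran. Here and below, called means a limma adjusted p under 0.05. Of all tested genes 0.986% were called lower and 1.47% higher with rivaroxaban, and 0.501% lower and 1.38% higher with dabigatran. Conduction system markers, 8 of 9, lay at 197 to 198 CPM with rivaroxaban and 169 to 178 CPM with dabigatran, against 170 to 171 CPM untreated. Of the 7 tested, 4 lay above and 3 below the untreated level with rivaroxaban, from -0.89 to 1.32 in log2 difference, with Gja5 and Cntn2 called higher; with dabigatran 3 lay above and 4 below, with Cntn2 called higher. Smooth muscle and pericyte markers, 8 of 8, lay at 1680 to 1696 CPM and 1712 to 1715 CPM with the drugs, against 1667 to 1675 CPM untreated. Most genes of that list did not follow its sum: 6 of 8 lay below the untreated level with rivaroxaban (median log2 difference -0.08, Myh11 called lower) and 5 of 8 with dabigatran (median -0.06, none called). The 8 macrophage markers lay at 496 to 576 CPM with rivaroxaban and 525 to 557 CPM with dabigatran, against 485 to 524 CPM untreated. The dabigatran and untreated sums were parted only narrowly (524.6 against 524.3 CPM), and none of the 8 genes was called with dabigatran. With rivaroxaban 6 of the 8 lay above and 2 below the untreated level (median log2 difference 0.09), with Cd163 called higher. Neuron and Schwann cell markers, 6 of 8, lay at 18.0 to 19.1 CPM with rivaroxaban and 16.04 to 16.91 CPM with dabigatran, against 18.5 to 18.7 CPM untreated. The sums of fibroblast markers (1363 to 1647 CPM over all libraries) and endothelial markers (1056 to 1169 CPM), 8 of 8 genes each, overlapped between all groups. With rivaroxaban 3 endothelial genes lay above and 5 below the untreated level (median log2 difference -0.01), with Emcn called lower. No endothelial gene was called with dabigatran, and no fibroblast gene with either drug. None of the listed marker genes in the table was at 0 reads in all libraries. The part of these differences between sums in the results below was not tested. In whole tissue, fewer cells of a type and less RNA per cell cannot be told apart.

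Per length of exon, the channel genes differed widely. In untreated hearts Kcnk3 led with a mean of 119 CPM per kb, followed by Kcnip2 (79.3 CPM per kb), Kcnh2 (33.1), Kcnq1 (19.9), Kcnd2 (17.4), Kcna5 (10.7), Kcnv2 (2.09), Kcne1 (1.94) and Kcna4 (0.637 CPM per kb). Averaged over all 6 libraries, the levels ran from the 97.0th percentile of all tested genes for Kcnk3 down to the 7.47th for Kcna4. Over all 6 libraries the ranges of Kcnq1 and Kcnd2, of Kcnd2 and Kcna5 and of Kcnv2 and Kcne1 overlapped, and those of the other neighbours in this order did not. The order changed with treatment for Kcna5, and for Kcne1, which stood above Kcnv2 with rivaroxaban (3.29 and 2.38 CPM per kb). Kcna5 moved further. With a mean of 21.5 CPM per kb in rivaroxaban and 19.5 in dabigatran hearts it stood above Kcnq1 (17.2 and 16.1 CPM per kb) and Kcnd2 (14.4 and 14.8), while in untreated hearts it stood below both. When the longest transcript was used as the length, Kcnq1 stayed above Kcna5 in every group (23.2 and 21.8 CPM per kb with rivaroxaban and dabigatran), and Kcna5 still passed Kcnd2 in both drug groups.

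**Figure D1:**
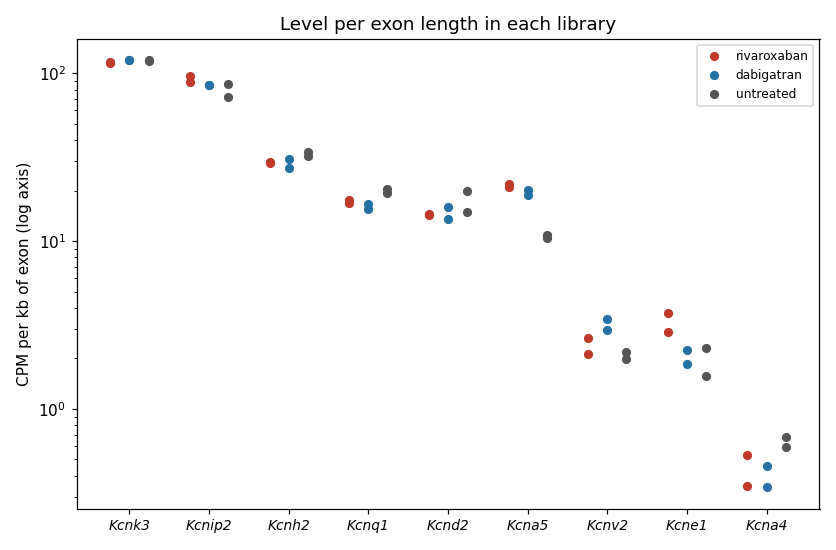
CPM per kb of exon (log axis) of each channel gene, 1 point per library, with rivaroxaban, dabigatran and untreated libraries from left to right within each gene. Kcna5 lies at 18.7 to 21.9 CPM per kb in the 4 treated libraries and at 10.4 and 10.9 in the untreated ones, while Kcnk3 stays between 114 and 120 in all 6.

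The study set each anticoagulant against no treatment, in a series on inflammation after ischemia and reperfusion of the heart. Of the 9 genes, 1 was called with rivaroxaban against untreated (Kcna5, higher) and 3 with dabigatran against untreated (Kcna5 and Kcnv2 higher, Kcnq1 lower), where called means a limma adjusted p under 0.05 over 12981 genes. Of all tested genes 2.46% were called with rivaroxaban (1.47% higher, 0.986% lower) and 1.88% with dabigatran (1.38% higher, 0.501% lower). The libraries of the groups did not overlap for 8 of the 9 genes with rivaroxaban (3 higher, 5 lower) and for 5 of 9 with dabigatran (2 higher, 3 lower). Among all tested genes this held for 50.6% with rivaroxaban (26.1% higher, 24.5% lower) and 43.6% with dabigatran (22.8% higher, 20.8% lower). Since these contrasts were in view when the genes were chosen, nothing is read from those counts. The median log2 difference of the 9 genes was -0.03 with rivaroxaban and 0.01 with dabigatran, beside 0.0050 and 0.0026 over all tested genes. With rivaroxaban 4 lay above and 5 below the untreated level, and with dabigatran 5 lay above and 4 below. Both comparisons use the same untreated libraries.

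**Figure D2:**
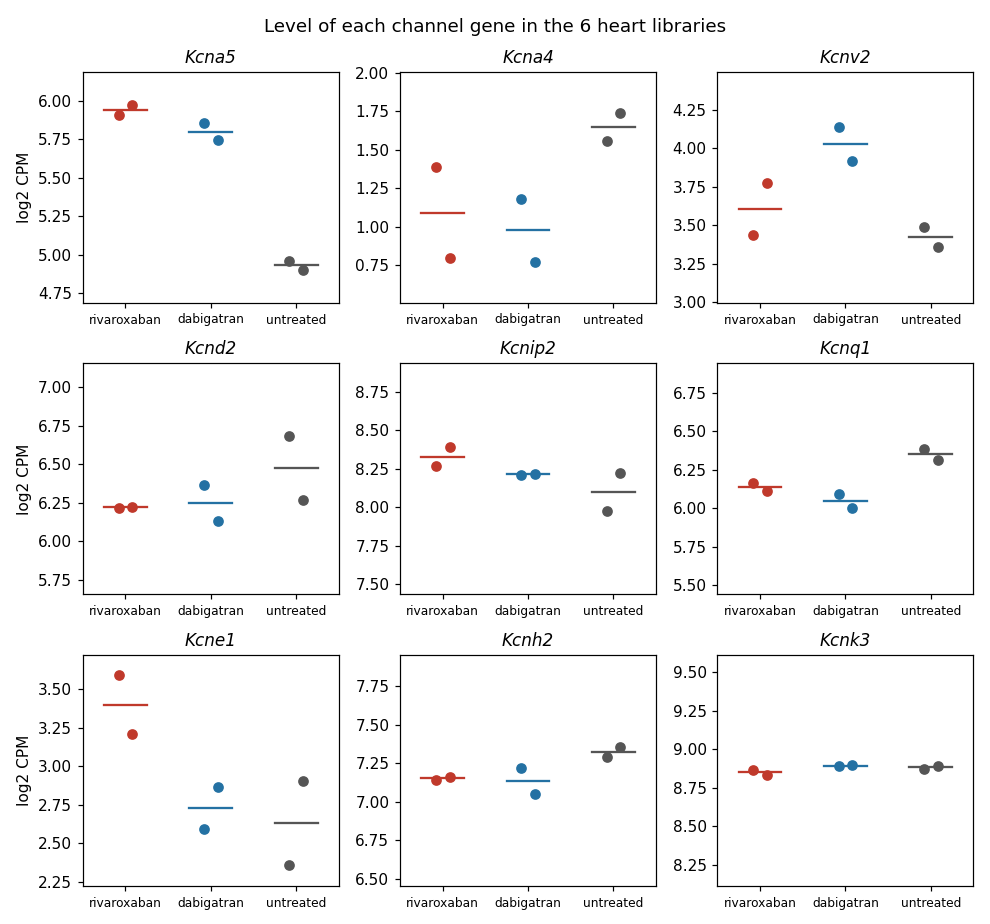
log2 CPM of each channel gene in the 6 libraries, with points for libraries and lines for group means, on axes that all span the same number of log2 units. The Kcna5 means of rivaroxaban and dabigatran libraries lie 1.01 and 0.87 log2 units above the untreated mean, and Kcnk3 is nearly flat.

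Kcna5 encodes the pore subunit of the ultrarapid delayed rectifier, which in mouse ventricle forms part of the slowly inactivating outward current. It had 5.91 and 5.97 log2 CPM in rivaroxaban hearts and 5.86 and 5.74 log2 CPM in dabigatran hearts, against 4.96 and 4.90 log2 CPM in untreated hearts. All 4 treated libraries lay above both untreated ones, by at least 0.78 log2 units. The level was 2.01 times that of untreated hearts with rivaroxaban (log2 difference 1.01, SE 0.07) and 1.83 times with dabigatran (log2 0.87, SE 0.07). These values rest on 886 to 2336 reads per library, for which counting error is at most 0.05 log2 units. With 1 library left out the log2 difference stayed between 0.98 and 1.04 for rivaroxaban and between 0.81 and 0.93 for dabigatran, and the gene stayed called each time; it was not called without the mean-variance trend, where no gene of the table was. Kcna5 lies on chromosome 6 of GRCm38 (mm10), 126532551 to 126535412 on the minus strand, as a protein-coding gene (ENSMUSG00000045534). Kcna6, of the same family, lies 172.9 kb away on the same strand and had 10 to 31 reads per library.

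As background, Kcna5 mRNA in rat heart is known to be induced by glucocorticoids. The 300 bases around its RefSeq start on GRCm38.p6, chr6:126535506-126535805 on the minus strand, are shown because Kcna5 is the gene that differed most. The window runs from 250 bases before the start to 50 after it. Capitals mark a match to the glucocorticoid response element, searched as GNACA and TGTNC with any 3 bases between them.
Kcna5: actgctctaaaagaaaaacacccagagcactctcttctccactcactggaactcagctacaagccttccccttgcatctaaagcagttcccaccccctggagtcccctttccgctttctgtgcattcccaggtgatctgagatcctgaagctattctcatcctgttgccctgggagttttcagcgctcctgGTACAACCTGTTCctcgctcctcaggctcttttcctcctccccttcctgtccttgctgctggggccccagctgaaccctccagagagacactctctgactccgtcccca
The matched bases begin 59 bases before the RefSeq start. On both strands 0.475% of the 32851 promoter windows in the table hold this pattern. Of the 9 genes, 5 had a window (Kcna5, Kcna4, Kcnd2, Kcnip2 and Kcnh2), and of these Kcna5 alone held it. None of the 5 windows held the E-box CACGTG, the cAMP response element TGACGTCA, the AP-1 site TGANTCA, the NR4A element AAAGGTCA, the D-box TTATGNAA or the TATA box TATAAA, which occur in between 1.51% and 13.6% of all windows. The CACCC box was present in all 5 and occurs in 57.5% of windows. A match of letters is a description and does not show a working site. Whether glucocorticoids had a part in the Kcna5 values was not tested.

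Kcna4, which encodes the pore of the slow transient outward current and belongs to the same Shaker family as Kcna5, had the lowest level of the 9 genes. It had 1.39 and 0.80 log2 CPM with rivaroxaban and 1.18 and 0.77 log2 CPM with dabigatran, against 1.55 and 1.74 log2 CPM in untreated hearts. Both untreated libraries lay above all 4 treated ones, but the lower untreated and the higher rivaroxaban library were only 0.17 log2 units apart. The log2 difference was -0.55 with rivaroxaban and -0.67 with dabigatran (SE 0.24 for each), and neither was called. With 49 to 106 reads per library, counting error alone reaches 0.21 log2 units. The gene lies on chromosome 2, 107290639 to 107298502 (plus strand). Its promoter window, chr2:107290339-107290638 on the plus strand, is shown to set it beside that of Kcna5: it holds 3 GC boxes (GGGCGG, present in 35.7% of windows, here read on the opposite strand), in capitals, where the Kcna5 window holds none, and its GC content is 67.7%, against 55.0% for Kcna5 and a median of 52.7% over all windows. This is not particular to Kcna4, since the windows of Kcnd2, Kcnip2 and Kcnh2 also hold GC boxes (1, 2 and 3). Their GC contents are 68.7%, 67.0% and 74.3%.
Kcna4: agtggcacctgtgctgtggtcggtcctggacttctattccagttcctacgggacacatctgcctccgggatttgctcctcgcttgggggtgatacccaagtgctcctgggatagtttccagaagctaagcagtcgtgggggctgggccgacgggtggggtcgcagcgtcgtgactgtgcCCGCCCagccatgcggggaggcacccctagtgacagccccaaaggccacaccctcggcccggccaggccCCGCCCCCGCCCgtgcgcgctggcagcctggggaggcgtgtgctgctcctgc

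Kcnv2 encodes a silent subunit that forms no channel alone and alters channels built with other Kv pore subunits. It had 3.44 and 3.77 log2 CPM with rivaroxaban and 4.14 and 3.92 log2 CPM with dabigatran, against 3.49 and 3.35 log2 CPM in untreated hearts. Both dabigatran libraries lay above all 4 others, and rivaroxaban and untreated libraries overlapped. The level with dabigatran was 1.52 times that of untreated hearts (log2 0.60, SE 0.13), and with rivaroxaban the log2 difference was 0.18 (SE 0.13). The dabigatran call was lost without dabigatran replicate 10 (log2 0.49), without untreated replicate 8 (0.67) and without untreated replicate 9 (0.54), and under quantile normalization (0.59).

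Kcnd2 and Kcnip2 encode the pore and the accessory subunit of the fast transient outward current. Kcnd2 had 6.21 and 6.22 log2 CPM with rivaroxaban and 6.36 and 6.13 with dabigatran, against 6.68 and 6.27 in untreated hearts. Kcnip2 had 8.27 and 8.39 log2 CPM with rivaroxaban and 8.21 and 8.21 with dabigatran, against 7.98 and 8.22 in untreated hearts. Untreated replicate 8 stood apart in both genes, with the highest Kcnd2 and the lowest Kcnip2 value of the 6 libraries. The log2 difference of Kcnd2 was -0.26 with rivaroxaban and -0.23 with dabigatran (SE 0.12 each), and that of Kcnip2 was 0.23 and 0.11 (SE 0.08 each); none was called. With untreated replicate 8 left out, Kcnd2 differed by -0.05 and -0.02 and Kcnip2 by 0.11 and -0.01. Without untreated replicate 9, when replicate 8 was the only untreated library, both genes were called with rivaroxaban (log2 -0.46 and 0.35). The ratio of Kcnip2 to Kcnd2 mRNA per kb of exon was 6.16 and 6.66 in rivaroxaban and 5.35 and 6.30 in dabigatran hearts, against 3.65 and 5.75 in untreated hearts, so dabigatran and untreated libraries overlapped. Kcnd2 lies on chromosome 6, 21215503 to 21729805, and Kcnip2 on chromosome 19, 45791839 to 45816061.

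**Figure D3:**
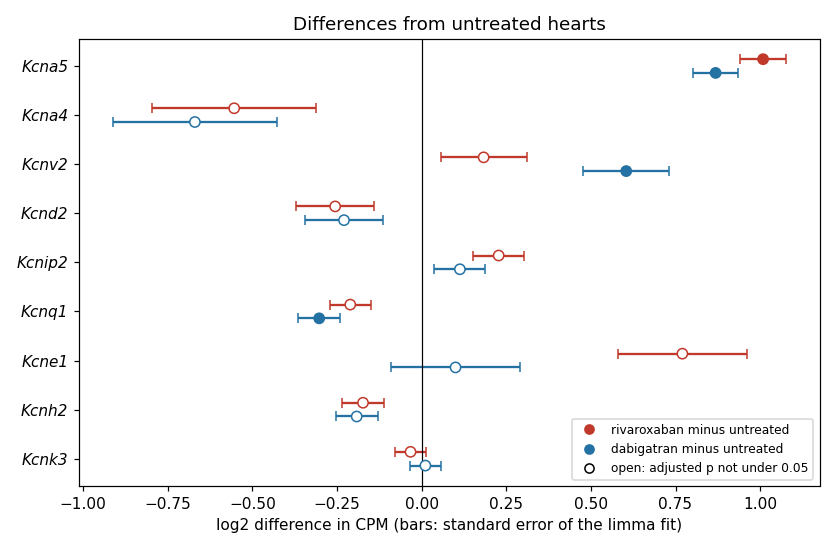
log2 difference from untreated hearts for each channel gene, rivaroxaban above dabigatran within a gene, with the standard error of the limma fit as bars and filled points where the gene was called. Kcna5 lies furthest to the right in both comparisons, Kcne1 is high with rivaroxaban and Kcnv2 with dabigatran.

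Kcnq1 encodes the pore of the slow delayed rectifier, mutated in a form of human long QT syndrome. It had 6.17 and 6.11 log2 CPM with rivaroxaban and 6.09 and 6.00 with dabigatran, against 6.38 and 6.32 in untreated hearts. All 4 treated libraries lay below both untreated ones. Its level was 0.811 times the untreated level with dabigatran (log2 -0.30, SE 0.06) and 0.864 times with rivaroxaban (log2 -0.21, SE 0.06). The dabigatran difference lost its call when any 1 of the 6 libraries was left out, with log2 values from -0.35 to -0.25. Dropping a rivaroxaban library, or fitting only the 4 libraries compared, cannot change the difference, and the call was lost there too. Kcnq1 lies on chromosome 7, 143106362 to 143427042, and 121 bases of its exons also belong to Kcnq1ot1, an antisense RNA on the opposite strand that was not analysed here. The library kit keeps strand, but the strand setting of the read counting is not given in the sources used here.

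Kcne1, whose small membrane protein slows the opening of the Kcnq1 channel, had 3.59 and 3.21 log2 CPM with rivaroxaban and 2.59 and 2.86 with dabigatran, against 2.35 and 2.90 in untreated hearts. Both rivaroxaban libraries lay above the other 4, while dabigatran and untreated libraries overlapped. The level was 1.71 times that of untreated hearts with rivaroxaban (log2 0.77, SE 0.19) and the log2 difference was 0.10 with dabigatran (SE 0.19); neither was called. The rivaroxaban difference was 1.04 and was called without untreated replicate 9, and it was 0.50 without untreated replicate 8. The gene rests on 144 to 436 reads per library, and its spread within groups was larger than that of 94.6% of tested genes. The ratio of Kcne1 to Kcnq1 mRNA per kb of exon was 0.213 and 0.169 in rivaroxaban and 0.111 and 0.144 in dabigatran hearts, against 0.0771 and 0.119 in untreated hearts. The rivaroxaban ratios lay above the rest. The summed conduction system markers, from cells that also make Kcne1 in the mouse, were highest in the same 2 libraries, although 3 of the 7 tested markers lay below the untreated level there; their part in the Kcne1 values was not tested. Kcne1 lies on chromosome 16, 92345982 to 92359468.

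Kcnh2 encodes the pore of the rapid delayed rectifier, the channel blocked by many drugs that prolong the QT interval. It had 7.14 and 7.16 log2 CPM with rivaroxaban and 7.22 and 7.05 with dabigatran, against 7.29 and 7.36 in untreated hearts. Every treated library lay below both untreated ones, the nearest by 0.08 log2 units. The log2 difference was -0.17 with rivaroxaban and -0.19 with dabigatran (SE 0.06 each), and neither was called. Kcnh2 lies on chromosome 5, 24319589 to 24351604.

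Kcnk3 encodes an acid-sensitive background channel of the K2P family. It had 8.87 and 8.83 log2 CPM with rivaroxaban and 8.89 and 8.89 with dabigatran, against 8.87 and 8.89 in untreated hearts. The 6 libraries lay within 0.06 log2 units of each other, and its spread within groups was smaller than that of all but 1.48% of tested genes. The log2 difference was -0.03 with rivaroxaban and 0.01 with dabigatran (SE 0.05 each). At 12718 to 20752 reads per library it was the most deeply covered of the 9 genes. Kcnk3 lies on chromosome 5, 30588170 to 30625271, and shares 229 exon bases with Gm9899 on the opposite strand, a gene with a mean of 0.06 log2 CPM.

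Between the drugs, at their different doses, none of the 9 genes was called, beside 0.077% of all tested genes (0.0% higher, 0.077% lower). The libraries did not overlap for 6 of the 9 genes (4 higher and 2 lower with rivaroxaban), beside 39.7% of all tested genes (19.3% higher, 20.4% lower). Kcne1 had the largest difference, 0.67 log2 units higher with rivaroxaban (SE 0.19), and Kcnv2 was 0.42 log2 units lower with rivaroxaban (SE 0.13). Kcna5 was 0.14 log2 units higher with rivaroxaban (SE 0.07), with all 4 values given above. The other 6 genes differed by at most 0.12 log2 units. A missing call does not show that the drugs act alike.

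All 4 pairs of genes set against each other as ratios were chosen after their values were seen. Per kb of exon, the ratio of Kcna5 to Kcnd2 was 1.46 and 1.51 in rivaroxaban and 1.27 and 1.38 in dabigatran hearts, against 0.546 and 0.699 in untreated hearts. Kcna5 mRNA was thus the more abundant in all 4 treated libraries and Kcnd2 mRNA in both untreated ones. The ratio of Kcna5 to Kcnv2 was 9.94 and 8.24 in rivaroxaban and 5.91 and 6.36 in dabigatran hearts, against 4.97 and 5.25 in untreated hearts, with no overlap between the groups.

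**Figure D4:**
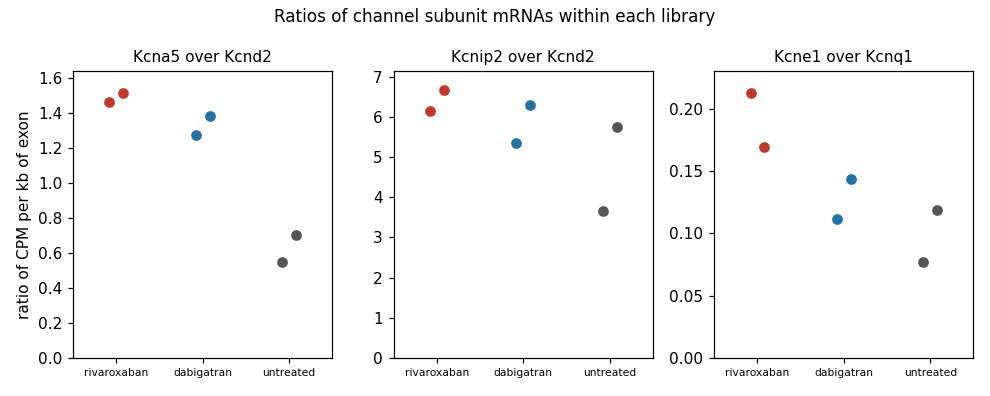
Ratio of CPM per kb of exon between pairs of channel subunits within each library, with 1 point per library. The Kcna5 to Kcnd2 ratio lies above 1 in the 4 treated libraries and below 1 in both untreated ones, while the Kcnip2 to Kcnd2 ratio overlaps between dabigatran and untreated libraries.

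Other genes of these pathways were described from 5 lists, of which 51 of 93 genes were tested. A further 21 lay under the filter, with mean log2 CPM from -2.72 to -0.13. Like the 9 genes, the lists were chosen with earlier results of these data known. Their calls and adjusted p-values in limma are therefore read only as labels. Here passed means called, rose called higher and fell called lower. Of all tested genes 2.46% were called with rivaroxaban and 1.88% with dabigatran. Of 10 other tested Kv pore subunits none passed in any comparison, and the median log2 difference was -0.04 with rivaroxaban and -0.01 with dabigatran. Kcng2, a silent subunit and the most abundant of them, had 7.30 and 7.24 log2 CPM with rivaroxaban and 7.45 and 7.29 with dabigatran, against 7.47 and 7.43 in untreated hearts (limma adjusted p = 0.168 and 0.602). Kcnd3, a further pore of the fast transient outward current, had log2 differences of -0.13 and -0.08 (limma adjusted p = 0.461 and 0.737).

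Of 5 other auxiliary Kv subunits, 1 rose with dabigatran, beside 1.38% of all tested genes, and none passed with rivaroxaban. The median log2 difference was 0.12 with rivaroxaban and 0.03 with dabigatran. Kcnip1, a relative of Kcnip2, had 2.78 and 3.16 log2 CPM with rivaroxaban and 3.82 and 3.18 with dabigatran, against 2.54 and 2.64 in untreated hearts. It rose with dabigatran (log2 0.91, limma adjusted p = 0.041), and its adjusted p in limma was 0.23 without dabigatran replicate 10, 0.201 without untreated replicate 8 and 0.105 without untreated replicate 9. Under quantile normalization it was 0.0718 in limma. Of 4 other K2P channels none passed (median log2 difference 0.02 with rivaroxaban and 0.04 with dabigatran). Kcnk6 had the largest difference, with 2.87 and 3.05 log2 CPM with rivaroxaban and 3.04 and 2.77 with dabigatran, against 2.40 and 2.56 in untreated hearts (log2 0.48 and 0.43, limma adjusted p = 0.105 and 0.168).

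Of 15 partner and trafficking genes, 1 rose with rivaroxaban and 2 with dabigatran, beside 1.47% and 1.38% of all tested genes. None fell, and the median log2 difference was 0.04 with rivaroxaban and 0.03 with dabigatran. Sgk1, a kinase known to raise the surface density of several potassium channels including that of Kcnq1 with Kcne1, had 6.68 and 6.69 log2 CPM with rivaroxaban and 6.56 and 6.79 with dabigatran, against 5.58 and 5.44 in untreated hearts (log2 1.18 and 1.17, limma adjusted p = 5.87e-05 and 1.2e-04). Hsp90aa1, a chaperone that helps the Kcnh2 protein fold, rose with dabigatran (log2 0.44, limma adjusted p = 0.0376) and had a log2 difference of 0.34 with rivaroxaban (limma adjusted p = 0.0869). The dabigatran call was lost without dabigatran replicate 10, untreated replicate 8 or untreated replicate 9, and also under quantile normalization (limma adjusted p = 0.0619). The rivaroxaban difference was called without dabigatran replicate 10 or without dabigatran replicate 12 (limma adjusted p = 0.0228 and 0.0227). The most abundant partners, Actn2 and Nedd4, had log2 differences of -0.04 and 0.03 with rivaroxaban and 0.0037 and 0.03 with dabigatran, and did not pass.

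Of 17 transcription factors known to act on cardiac potassium channel genes or chamber identity, 3 fell with rivaroxaban and 1 with dabigatran. Among all tested genes 0.986% and 0.501% were called lower. None of the 17 rose, and the median log2 difference was -0.06 with rivaroxaban and -0.07 with dabigatran. Irx4 and Hey2 of this list are also among the ventricular markers. No gene of the 5 lists passed between the drugs. Irx3, a homeobox factor of the ventricular conduction system, had 5.32 and 5.29 log2 CPM with rivaroxaban and 5.13 and 5.38 with dabigatran, against 5.78 and 5.74 in untreated hearts (log2 -0.46 and -0.51, limma adjusted p = 0.016 and 0.0115). Irx4, a ventricular homeobox factor, fell with rivaroxaban (log2 -0.38, limma adjusted p = 0.0473) and had a log2 difference of -0.36 with dabigatran (limma adjusted p = 0.0618). Mef2c fell with rivaroxaban (log2 -0.29, limma adjusted p = 0.0271), with -0.18 under dabigatran (limma adjusted p = 0.154). Each of the 3 rivaroxaban calls was lost without rivaroxaban replicate 15, untreated replicate 8 or untreated replicate 9, and those of Irx3 and Mef2c also without rivaroxaban replicate 14; the dabigatran call of Irx3 was lost without dabigatran replicate 10 or untreated replicate 8. The Irx4 call was also lost under quantile normalization and at a mean log2 CPM of 2 or more (limma adjusted p = 0.0652 and 0.0551). Irx5, a repressor of Kcnd2 in mouse heart, had log2 differences of -0.29 and -0.31 (limma adjusted p = 0.231 and 0.232), and Klf15, which drives the daily rhythm of Kcnip2 in mouse heart, 0.23 and 0.10 (limma adjusted p = 0.364 and 0.766). Irx5 and Klf15 were chosen after their values were seen.

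**Figure D5:**
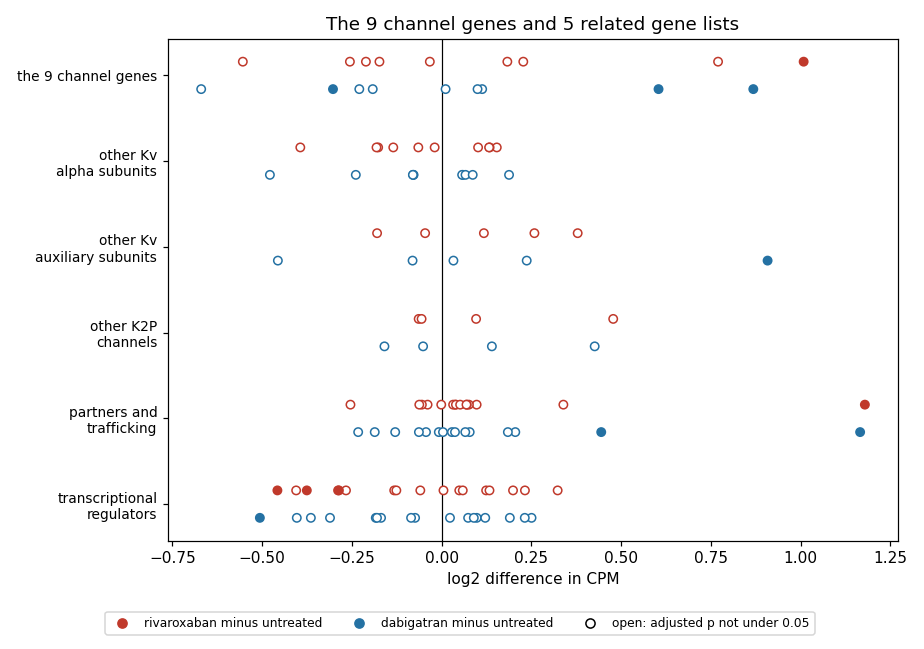
log2 difference from untreated hearts for the 9 channel genes and the tested genes of 5 related lists, 1 point per gene, rivaroxaban above dabigatran, filled where called. Sgk1 lies at 1.18 with rivaroxaban and 1.17 with dabigatran, and no other Kv pore subunit or K2P channel is filled.

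Kcnj2, an inward rectifier that helps hold the resting voltage and complete repolarization, was called lower with both drugs (log2 -0.72 and -0.49, limma adjusted p = 8.44e-04 and 0.0100). Of the other inward rectifiers named here, Kcnj3 was called lower with rivaroxaban (log2 -0.37, limma adjusted p = 0.0138). With dabigatran Kcnj3 had a log2 difference of -0.25 (limma adjusted p = 0.0800). Kcnj5, Kcnj11 and Kcnj12 did not pass, with log2 differences between -0.20 and 0.11. Unlike the calls in the lists above, those of Kcnj2 and Kcnj3 were not checked with other scalings or with libraries left out.

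The tested genes whose log2 CPM followed Kcna5 most closely over the 6 libraries were Stim1, a calcium sensor of the endoplasmic reticulum (Pearson r = 0.996), Zmym1 (0.995) and Cpsf1, a subunit of the complex that cleaves pre-mRNA before polyadenylation (0.993). Stim1 had 4.80 and 4.84 log2 CPM with rivaroxaban and 4.81 and 4.79 with dabigatran, against 4.62 and 4.60 in untreated hearts. These correlations describe the treated and untreated levels of the same 6 libraries, which form separate clusters, and carry no p-value.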

How the data were processed

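Poly-A RNA of 6 heart samples was sequenced from directional libraries, per the labels' protocols. Tools listed in the submitters' processing notes are STAR, edgeR, Trim Galore, FastQC and bcl2fastq, with the build mm10. Their versions, the read counter and its annotation: not given in the sources used here. Values were deposited as TMM-normalized log2 CPM, per the file headers. A small amount was added before the log, since the minimum is -4.04 in each of the 6 libraries, so differences of low genes are understated. After that floor was subtracted, 100% of values up to 200 steps were whole multiples of 1 read's worth within 0.02 reads, which gave the read numbers; these cover counting error only and reads are not independent molecules.

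The 9 genes and all lists were chosen with earlier results of these data known. The filter kept 12981 of 16229 genes, those averaging 0 log2 CPM or more. limma 3.58.1 (R 4.3.3) fitted the means of the 3 groups over the 6 libraries (eBayes with a mean-variance trend, 3 residual and 7.75 prior degrees of freedom), with two-sided p-values adjusted by Benjamini-Hochberg over all tested genes at a threshold of 0.05. An exact permutation test of 2 against 2 libraries cannot go below p = 0.333 and was not used. Levels per length are CPM, with the floor subtracted, over the union of GENCODE M21 exons on GRCm38, the assembly of mm10. Promoters are from RefSeq, GRCm38.p6. List genes were matched by symbol or by the Ensembl or Entrez number of the RefSeq symbol, 72 of 93. Named beyond the 9 genes are mainly list genes that passed, some of the most abundant list genes, some called marker genes and 5 inward rectifiers. Irx5 and Klf15 were added after their values were seen. Stim1, Zmym1 and Cpsf1 were picked for their correlation with Kcna5. The alternatives were other scalings, filters, a pseudocount of 1, no trend, fits of the compared groups alone and each library left out.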

Additional observations from a re-analysis of the deposited data

How the results depend on the processing

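Over 27 differences of the 9 genes, 322 of 348 recomputed values kept their direction and side of the threshold, 15 lost and 3 gained a call, and 8 changed sign. The sign changes were in small differences: Kcnk3 with dabigatran under quantile normalization (-0.0356), Kcnip2 (-0.0089) and Kcne1 (-0.17) with dabigatran without untreated replicate 8, Kcne1 with dabigatran without dabigatran replicate 12 (-0.0351), and between the drugs Kcna4 without rivaroxaban replicate 14 (-0.18) or dabigatran replicate 12 (-0.09), Kcnd2 without dabigatran replicate 10 (0.0906) and Kcnh2 without dabigatran replicate 12 (-0.0646). With 1 library left out these differences ranged from -0.0089 to 0.235 (Kcnip2, dabigatran), -0.174 to 0.374 (Kcne1, dabigatran), and between the drugs from -0.18 to 0.411 (Kcna4), -0.143 to 0.0906 (Kcnd2) and -0.0646 to 0.102 (Kcnh2). The cause was not tested. Many of the 348 values could not change direction. Other filters, no trend and fits of the compared groups alone reuse the same log2 values. Leaving out a library of the group outside the comparison also leaves the difference as it is.

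Without the mean-variance trend 0 genes and 0 of the 9 were called in each comparison, and 0 of each related list; limma then gave 1938, 1728 and 984 genes at an unadjusted p under 0.05 for rivaroxaban, dabigatran and the drugs against each other. With the trend the counts over all genes were 319, 244 and 10. Quantile normalization gave 154 genes with dabigatran and 1 between the drugs, a median of -0.0356 over the 9 genes with dabigatran, and 0 auxiliary subunits and 1 partner gene with dabigatran. At a mean log2 CPM of at least 2, which drops Kcna4, the medians were 0.075, 0.0555 and 0.0552, and 1 gene was called between the drugs. With only the 4 libraries compared, 2 partner genes rose with rivaroxaban and 6 genes were called between the drugs.

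With 1 library left out, the lone library of its group is assumed to vary like the others. Calls over all genes then ranged from 61 to 410 with rivaroxaban, 73 to 270 with dabigatran and 0 to 20 between the drugs, and calls among the 9 genes from 1 to 4 and 1 to 2. The median of the 9 genes ranged from -0.0351 to 0.0217 with dabigatran and -0.0430 to 0.11 between the drugs. Partner genes called ranged from 1 to 2 with each drug, auxiliary subunits with dabigatran from 0 to 1, and transcription factors from 0 to 4 with rivaroxaban and 0 to 2 with dabigatran. With the longest transcript as length, 7, 7 and 9 of 9 genes kept their rank in rivaroxaban, dabigatran and untreated hearts. The 2 planned count models on recovered reads were not run, since the deposited values are on a log scale. No paired analysis was possible because the groups share no replicate numbers. Of the 9 genes, Kcna4 and Kcne1 had the fewest reads, with counting errors of up to 0.21 and 0.12 log2 units. Their SDs within groups, 0.30 and 0.29 log2 units, were larger than that.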
